A study of Mus musculus with 23 samples.

Results

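A set of 9 genes was followed library by library in RNA of mouse hearts at embryonic day 13.5: Nnt, Gm7120, Wdfy1, Glo1, Dnahc8, Synj2, Tmem181a, Tmem181b-ps and Dynlt1b. They are 9 of the 23453 genes of the deposited count table, and all 9 passed the filter on low counts, as did 13941 genes in all. The genes were chosen by their measured differences from wild type in an earlier look at these data, in both groups with altered G-protein coupled receptor kinases (GRKs), and because they are known to vary between inbred mouse strains or lie side by side on a chromosome. Their differences from wild type are therefore given as descriptions, and nothing is read from whether they pass a threshold. The hearts of the 8 wild-type libraries had unmodified Grk2, Grk5 and Grk6 on both alleles and no Cre. The hearts of the 8 haploinsufficient libraries had 1 floxed and 1 wild-type allele of Grk2. They were homozygous for floxed Grk5 (fl/fl) and for the Grk6 knockout (KO/KO), and carried Nkx2.5Cre. The hearts of the 7 triple-knockout libraries had the same Grk5 and Grk6 alleles and the same Cre, with Grk2 fl/fl. All libraries are labelled C57BL/6, with no substrain, litter or parent. In the deposited column names, C57 stands for the wild-type libraries alone (C57ntg), while the others read GRKhaplo or GRKTKO. Nkx2.5Cre expresses the recombinase in the cardiac lineage, so cells of other lineages in the heart keep their floxed alleles, while the Grk6 knockout is in every cell. The modified GRK alleles, Cre and any inherited difference between the mouse lines always came together, and these cannot be told apart in a comparison with wild type.

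Inbred strains and their substrains differ at many places in the genome, and a chromosome segment from the strain in which an allele was made can be carried along with that allele through breeding. Nnt encodes nicotinamide nucleotide transhydrogenase, an inner mitochondrial membrane enzyme that uses the proton gradient to make NADPH, and the C57BL/6J substrain is known for a deletion of several of its exons. The counts used here are per whole gene, so whether any library carried that deletion was not tested. Glo1 encodes glyoxalase 1, which detoxifies methylglyoxal with glutathione, and some inbred strains carry a duplicated stretch of chromosome that holds it. Wdfy1 encodes a protein with WD repeats and a FYVE domain that binds phosphatidylinositol 3-phosphate on endosomes. Synj2 encodes synaptojanin 2, an inositol phosphatase, Dnahc8 a dynein heavy chain of the axoneme, and Dynlt1b a light chain of cytoplasmic dynein. Tmem181a encodes a transmembrane protein, Tmem181b-ps is named as a pseudogene related to it, and Gm7120, now called Tmem267, is named as a transmembrane protein gene.

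The genes fall into 4 places in the mm10 gene models deposited with the data. Nnt (chr13:119334317-119409138, minus strand, 17 exon blocks) and Gm7120 (chr13:119488039-119610459, plus strand, 4 exon blocks) lie 79 kb apart, 63.87 Mb from Grk6 in the case of Nnt. Wdfy1 (chr1:79702262-79761769, minus strand, 12 exon blocks) lies alone. Glo1 (chr17:30592862-30612659, minus strand, 6 exon blocks) and Dnahc8 (chr17:30626936-30875264, plus strand, 93 exon blocks) start 14 kb apart and are read away from each other. Glo1 lies 3.75 Mb from Nkx2-5, the gene that gives the Cre driver its name. Synj2 (chr17:5941280-6044290, plus strand, 28 exon blocks), Tmem181a (chr17:6270475-6305783, plus strand, 17 exon blocks), Dynlt1b (chr17:6430112-6436295, plus strand, 5 exon blocks) and Tmem181b-ps (chr17:6439002-6450994, minus strand, 10 exon blocks) form the last cluster, 20.39 to 20.79 Mb from Nkx2-5. Dynlt1b and Tmem181b-ps are 3 kb apart. The counts hold whole genes without strand, so reads of Gm7120 and the antisense 3110070M22Rik (162 shared exonic bases), and of Synj2 and Serac1 (297 shared bases), cannot be told apart there.

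The starts of the 4 Dynlt1 coding sequences are shown because the reading of Dynlt1b rests on how far its reads can be told from those of its copies. The sequences are the first 60 bases of each coding sequence in the GENCODE M21 transcripts (GRCm38), 5′ to 3′, with base 21, counted from the first base of the start codon, in capitals.
Dynlt1b: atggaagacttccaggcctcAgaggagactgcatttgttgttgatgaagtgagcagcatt
Dynlt1a: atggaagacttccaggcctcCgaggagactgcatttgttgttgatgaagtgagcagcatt
Dynlt1c: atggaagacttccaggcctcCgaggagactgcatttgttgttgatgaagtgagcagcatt
Dynlt1f: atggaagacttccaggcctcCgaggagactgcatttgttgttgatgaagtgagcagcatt
Over all 342 coding bases, base 21 was the single position at which the 4 copies differed, A21C from Dynlt1b to each of the others. Of the 722 stretches of 50 bases in the Dynlt1b transcript, the read length of these libraries, 601 (83.2%) also occur in a transcript of another gene. The 121 that occur in Dynlt1b alone lie in or reach into its first part: 51 inside the 5′ UTR, 70 touching the coding sequence and 0 of 280 inside the 3′ UTR. Tmem181b-ps shared 50.8% of its stretches and Tmem181a 34.4%, most of them with each other and with Tmem181c-ps. Glo1 shared 10.1%, Gm7120 7.72%, Dnahc8 3.38%, Synj2 3.09%, Wdfy1 1.71% and Nnt 0. Levels of Dynlt1b, Tmem181a and Tmem181b-ps are thus uncertain to the extent that shared reads were assigned or dropped by the authors' counting, which the sources used here do not describe. The stretches were sought in annotated transcripts alone, so matches elsewhere in the genome are not covered. A low share, as for Wdfy1, does not show that the reads of a gene were assigned without doubt.

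The promoters of Glo1 and Dnahc8 are shown because the pair is read from nearby starts in opposite directions. These are the 250 bases before each start from RefSeq (GRCm38.p6), in the direction of each gene, with the motifs GGGCGG and CCAAT in capitals. Both strands were searched, so a motif can also appear as its reverse complement.
Glo1, chr17:30612660-30612909, minus strand: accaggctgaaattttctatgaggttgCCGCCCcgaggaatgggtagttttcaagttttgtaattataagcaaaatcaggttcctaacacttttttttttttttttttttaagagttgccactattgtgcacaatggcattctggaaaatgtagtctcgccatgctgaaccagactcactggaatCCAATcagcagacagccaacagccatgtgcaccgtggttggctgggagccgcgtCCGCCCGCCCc
Dnahc8, chr17:30626686-30626935, plus strand: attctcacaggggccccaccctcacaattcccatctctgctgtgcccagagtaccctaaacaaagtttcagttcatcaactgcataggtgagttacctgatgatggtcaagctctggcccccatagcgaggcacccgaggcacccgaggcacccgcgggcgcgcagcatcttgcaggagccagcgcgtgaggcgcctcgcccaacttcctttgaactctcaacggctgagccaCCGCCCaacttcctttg
GGGCGG occurred 3 times before Glo1, of which 2 overlap, and once before Dnahc8, against 32.7% of the 32851 RefSeq windows of this length that hold it. CCAAT occurred before Glo1 and not before Dnahc8, against 33.8% of windows, and TATAAA before neither, against 12.4%. A promoter was matched for 5 of the 9 genes.

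The library totals ran from 3838166 to 14050559 counts in wild type, from 1757257 to 11025358 in the haploinsufficient group and from 6657734 to 13864731 in the triple knockout. Cre was at 0 to 0.859 CPM (counts scaled to the library's adjusted total) in wild type, and at 9.90 to 23.97 and 8.23 to 24.95 in the other 2 groups. Whole-gene sums gave Grk2 (named Adrbk1 in the files) at 48.89 to 60.51 CPM in wild type, 21.85 to 57.5 in haploinsufficient and 26.38 to 42.82 in triple-knockout hearts, Grk5 at 20.27 to 27.4, 8.26 to 15.2 and 10.92 to 19.71 CPM, and Grk6 at 26.24 to 35.56, 11.04 to 23.32 and 9.65 to 20.71 CPM in the same order. The sums of the GRK genes include exons outside any deleted part and are no full check of the deletions. Nkx2-5 summed to 82.89 to 114.2 CPM in wild type, 47.62 to 94.1 in haploinsufficient and 26.53 to 61.8 in triple-knockout hearts. Cardiomyocyte markers (Myh6, Myh7, Tnnt2, Actc1, Nppa, Tnni3, Ryr2 and Myl7, all 8 detected in each group) summed to 23950 to 46810 CPM over all libraries. Markers of lung, foregut, liver and thymus, which lie beside the heart, summed to 8.00 to 53.72 CPM in wild type, 18.17 to 218.9 in haploinsufficient and 12.28 to 126.5 in triple-knockout hearts, with 13 of 13 genes detected in the first 2 groups and Cdx2 at 0 in the third. Each n counts libraries. The labels do not say whether libraries came from separate litters, so every p-value rests on the spread between these samples alone, which may be technical. Library IDs 1 to 12 and 19 to 30 form 2 sets of libraries, called ID set 1 and ID set 2 here, each with all 3 groups.

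Wdfy1 had the tightest levels of the 9 genes in both GRK groups. Its level was 16.2 to 23.2 CPM in wild type (median 19.5), 38.0 to 44.9 in haploinsufficient hearts (median 41.8) and 39.7 to 48.9 in triple-knockout hearts (median 42.7). All 15 GRK libraries lay above all 8 wild-type libraries, each at 1.96 to 2.52 times the wild-type mean. The coefficient of variation was 12.6% in wild type, 6.36% in haploinsufficient and 6.86% in triple-knockout hearts. Against wild type the log2 fold change was 1.11 ± 0.09 (SE, n = 8 and 8) in haploinsufficient and 1.16 ± 0.09 (SE, n = 7 and 8) in triple-knockout hearts. Within the sets of libraries the triple-knockout value was 1.35 in ID set 1 and 1.00 in ID set 2. A second, deposited measure differed: Wdfy1 averaged 15.5 ± 3.4 FPKM in wild type, 18.8 ± 2.7 in haploinsufficient and 17.6 ± 3.0 in triple-knockout hearts (SD, n = 8, 8 and 7). On that scale 7 of 8 haploinsufficient and 6 of 7 triple-knockout libraries fell inside the wild-type range.

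Glo1 also separated the groups in every library. It was at 78.9 to 100.1 CPM in wild type (median 82.8), 117.7 to 162.8 in haploinsufficient (median 151.6) and 109.4 to 166.3 in triple-knockout hearts (median 126.4). No GRK library overlapped wild type, and the haploinsufficient libraries stood in 2 blocks, replicates 3, 5, 7 and 8 up to 143.3 CPM and replicates 1, 2, 4 and 6 from 160.02 CPM, a gap that 92.2% of all genes match or exceed in that group. The log2 fold change against wild type was 0.76 ± 0.09 (SE) in haploinsufficient and 0.62 ± 0.10 in triple-knockout hearts. Deposited FPKM gave ratios of group means close to those from counts, 1.60 against 1.70 in haploinsufficient and 1.54 for both in triple-knockout hearts.

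Dnahc8, next to Glo1, overlapped between groups. Its level was 3.49 to 15.3 CPM in wild type (median 6.96), 9.36 to 18.5 in haploinsufficient (median 10.7) and 11.03 to 17.6 in triple-knockout hearts (median 14.8). Wild-type replicate 2, at 15.3 CPM, stood apart from the other 7, which were at 8.43 CPM or less, below all 15 GRK libraries. Among all genes, 9.06% had so wide a gap in wild type. Against wild type the log2 fold change of Dnahc8 was 0.68 ± 0.22 (SE) in haploinsufficient and 0.90 ± 0.22 in triple-knockout hearts. Dnahc8 was the one gene of the 9 that did not pass the threshold in the haploinsufficient group, although the set was picked as changed in both.

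**Figure D1:**
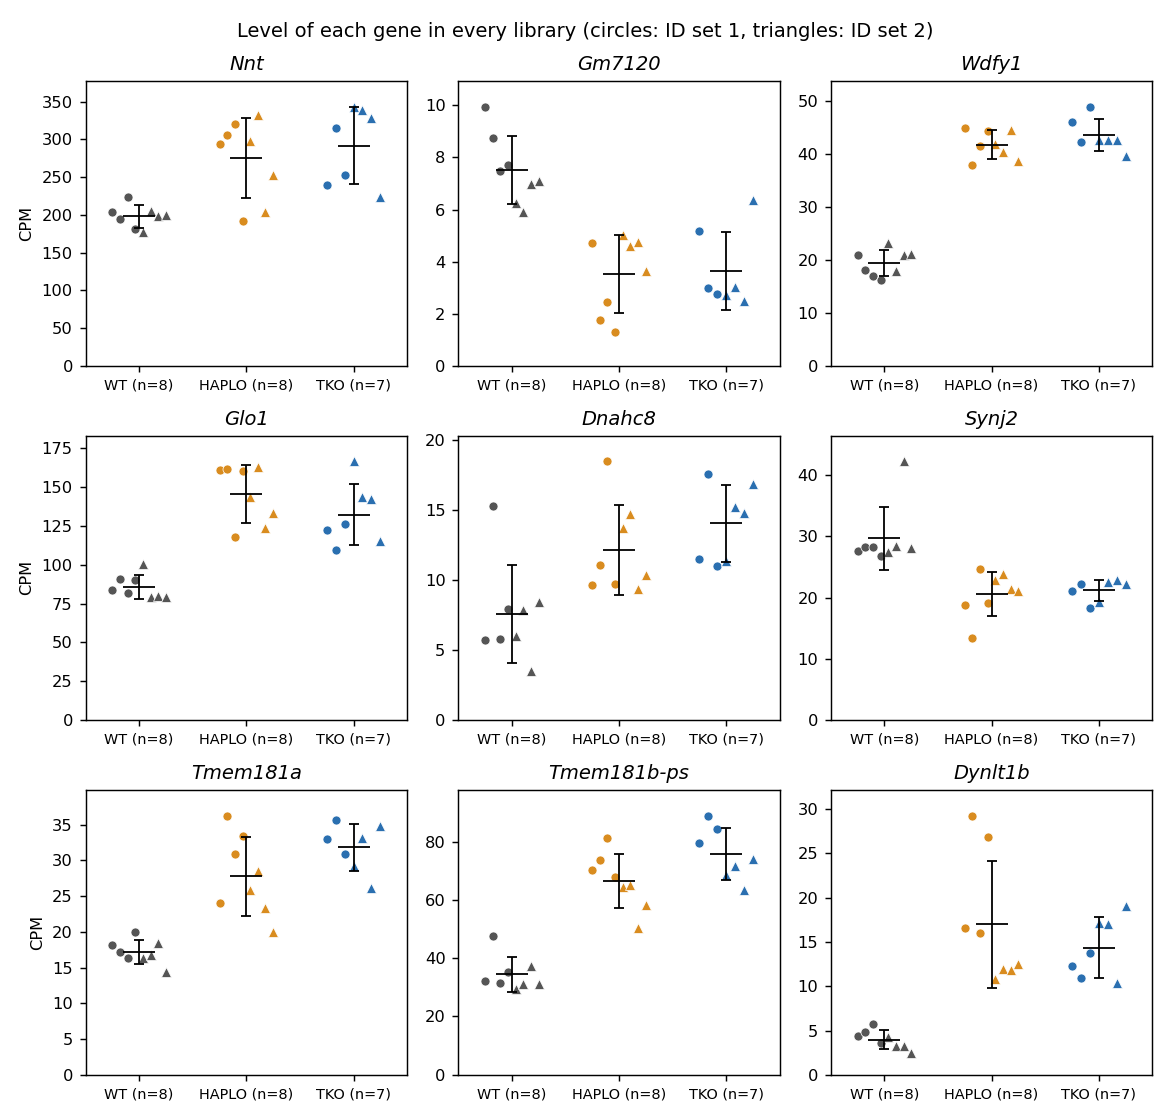
Level of each of the 9 genes in CPM (y axis, from 0) in every library of the wild-type (WT), haploinsufficient (HAPLO) and triple-knockout (TKO) groups, with the group mean ± SD in black; circles are ID set 1 and triangles ID set 2. Wdfy1 lies at 38.0 to 48.9 CPM in all 15 GRK libraries, above the wild-type maximum of 23.2, while Nnt in haploinsufficient and triple-knockout hearts spreads from 191.5 to 343.1 CPM and overlaps wild type.

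Nnt varied more among the GRK hearts, with a coefficient of variation of 19.3% in haploinsufficient and 17.4% in triple-knockout hearts, than in wild type (7.44%). It was at 177.2 to 224.1 CPM in wild type (median 199.0), 191.5 to 332.3 in haploinsufficient (median 295.9) and 224.1 to 343.1 in triple-knockout hearts (median 314.7). Haploinsufficient replicates 4 and 7 were within the wild-type range at 191.5 and 204.5 CPM, and the other 6 were at 252.7 CPM or more. Triple-knockout replicates 7, 1 and 3 were at 224.1, 240.1 and 253.1 CPM, below the other 4 at 314.7 CPM or more. These gaps, 0.31 log2 in each GRK group, are as large or larger in 63.9% of all genes in the haploinsufficient and 41.1% in the triple-knockout group. Against wild type the Nnt log2 fold change was 0.47 ± 0.12 (SE) in haploinsufficient and 0.56 ± 0.12 in triple-knockout hearts.

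Most of the libraries with low Nnt, but not all, were also low in cardiomyocyte markers, a relation that was looked at after the values were seen. Haploinsufficient replicates 4 and 7 had marker sums of 24670 and 25510 CPM and triple-knockout replicates 7 and 1 had 23950 and 24550 CPM, the lowest of their groups. Triple-knockout replicate 3, with Nnt at 253.1 CPM, had a marker sum of 33000 CPM, near its group's median of 33020. Correlations were computed between the log2 values of Nnt and of the marker sum. Within the haploinsufficient group Nnt rose with the marker sum (Pearson r = 0.913, exact permutation p = 0.00114, adjusted 0.0242; Spearman rho = 0.857, exact p = 0.0107, adjusted 0.139; n = 8). In the triple knockout r was 0.932 (exact permutation p = 0.00179, adjusted 0.0242) and rho 1.0 (exact p = 0.000397, adjusted 0.0107, n = 7). Without the 2 libraries farthest from the median marker sum, r was 0.829 and 0.883. In wild type r was -0.034 (exact permutation p = 0.935, adjusted 0.993; rho -0.024, exact p = 0.977, adjusted 0.977, n = 8), over a narrower range of marker sums, 27790 to 40940 CPM. These are 2 of the 27 relations computed, 9 genes in 3 groups, that passed by Pearson r after Benjamini-Hochberg adjustment. With the log2 marker sum as a term in the fit, the Nnt fold changes were 0.42 and 0.50. In whole hearts, fewer cells of a type and less RNA per cell cannot be told apart. Sums of the lung, foregut, liver and thymus markers were high in several of these libraries, 218.9 CPM in haploinsufficient replicate 7, 126.5 in triple-knockout replicate 7 and 103.1 in triple-knockout replicate 1, but 40.49 in haploinsufficient replicate 4. They were also high in haploinsufficient replicates 1 (134.6 CPM) and 8 (147.8 CPM), where Nnt was at 293.7 and 252.7 CPM, above every wild-type library. The part of these markers in the level of Nnt was not tested.

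**Figure D2:**
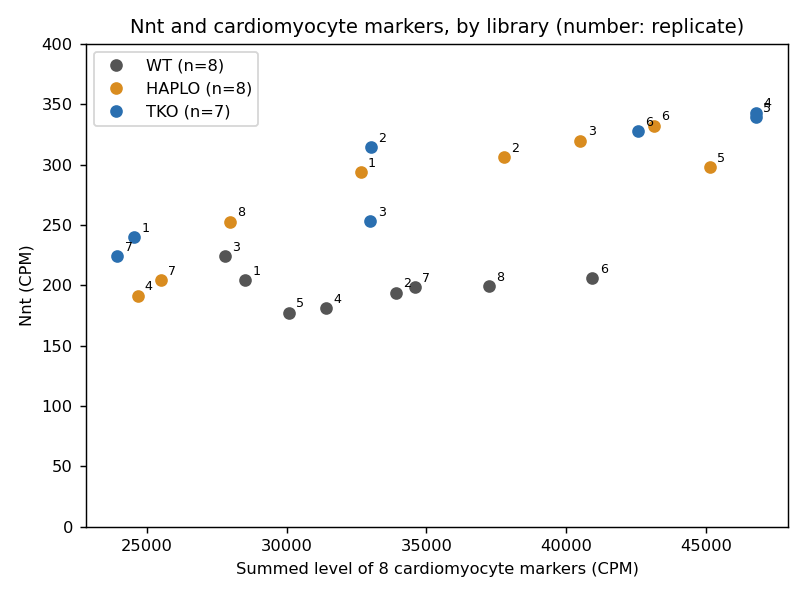
Nnt in CPM (y axis, from 0) against the summed level of 8 cardiomyocyte markers in CPM (x axis), 1 point per library, numbered by replicate and coloured by group. The points of the haploinsufficient (r = 0.913) and triple-knockout (r = 0.932) groups rise from left to right, and those of wild type (r = -0.034) stay between 177.2 and 224.1 CPM. Each r was computed from log2 values, while the axes show CPM.

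Gm7120, 79 kb from Nnt, differed in the opposite direction. It was at 5.91 to 9.94 CPM in wild type (median 7.28), 1.30 to 5.01 in haploinsufficient (median 4.12) and 2.4985 to 6.38 in triple-knockout hearts (median 2.97). All 8 haploinsufficient libraries and 6 of 7 triple-knockout libraries were below all of wild type. Triple-knockout replicates 1 and 7, at 5.18 and 6.38 CPM, stood above the other 5, which were at 3.01 CPM or less, and 7.96% of all genes had so wide a gap in that group. Counts were low, with 3 reads in the shallowest library, haploinsufficient replicate 2, and 4 in haploinsufficient replicate 4. The log2 fold change was -1.02 ± 0.26 (SE) in haploinsufficient and -1.03 ± 0.25 in triple-knockout hearts, and in the haploinsufficient group it was -1.64 in ID set 1 and -0.54 in ID set 2.

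In the cluster on chromosome 17, Synj2 was lower and its 3 neighbours in the set were higher than in wild type. Synj2 was at 26.7 to 42.2 CPM in wild type (median 28.2), 13.4 to 24.7 in haploinsufficient (median 21.3) and 18.3 to 22.8 in triple-knockout hearts (median 22.2). None of the 15 GRK libraries reached the wild-type minimum, and 7 of 8 wild-type libraries lay between 26.7 and 28.5 CPM. Log2 fold changes were -0.50 ± 0.11 (SE) in haploinsufficient and -0.48 ± 0.11 in triple-knockout hearts.

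Tmem181a was at 14.3 to 20.05 CPM in wild type (median 17.0), 19.97 to 36.2 in haploinsufficient (median 27.2) and 26.1 to 35.7 in triple-knockout hearts (median 33.0). A single GRK library, haploinsufficient replicate 8, fell within the wild-type range. Tmem181b-ps was at 29.4 to 47.8 CPM in wild type (median 31.9), 50.5 to 81.2 in haploinsufficient (median 66.4) and 63.5 to 88.8 in triple-knockout hearts (median 74.2), with no overlap. The log2 fold changes were 0.68 ± 0.10 (SE) and 0.90 ± 0.10 for Tmem181a, and 0.94 ± 0.09 and 1.15 ± 0.09 for Tmem181b-ps, haploinsufficient first.

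Dynlt1b had the largest ratio of the 9 genes to wild type from counts. It was at 2.51 to 5.70 CPM in wild type (median 3.96), 10.9 to 29.2 in haploinsufficient (median 14.3) and 10.3 to 19.01 in triple-knockout hearts (median 13.8). All 15 GRK libraries lay above wild type, at 2.59 to 7.34 times its mean. Haploinsufficient replicates 2 and 4, at 29.2 and 26.9 CPM, stood above the other 6, which were at 16.6 CPM or less. In that group 24.1% of all genes had so wide a gap. The log2 fold change was 2.03 ± 0.21 (SE) in haploinsufficient and 1.90 ± 0.21 in triple-knockout hearts, but 1.01 and 0.97 by limma on log2(FPKM + 0.1). Of the copies, Dynlt1a was at 6.79 ± 1.72 CPM in wild type, 7.66 ± 2.496 in haploinsufficient and 5.44 ± 1.98 in triple-knockout hearts (SD, n = 8, 8 and 7). Dynlt1c was listed with 0 counts in every library and Dynlt1f fell under the filter. How the authors' counting divided reads between these copies was not tested.

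Read across the 9 genes, 8 passed the threshold of an adjusted p of 0.05 (edgeR) in both GRK groups against wild type and all 9 did in the triple knockout. Over all genes tested, 1.18% passed in the triple knockout and 2.24% in the haploinsufficient group. The choice of genes used these comparisons, and both share the wild-type libraries, so nothing is read from the counts. The sets of libraries taken alone hold the same libraries that the choice used and are given as a description. In the triple knockout 4 of the 9 genes passed in ID set 1 alone and 5 in ID set 2 alone, and in the haploinsufficient group 4 in each. The log2 fold changes of the 2 sets were farthest apart for Gm7120 in the haploinsufficient group, at -1.64 in ID set 1 and -0.54 in ID set 2, and next for Dynlt1b in the triple knockout, at 1.39 and 2.25 on the log2 scale. Nearest to the threshold, Gm7120 lay just inside it in both groups, at -1.03 log2 in the triple knockout and -1.02 in the haploinsufficient group, and Dnahc8 lay outside it in the haploinsufficient group, at 0.68. In the triple knockout 6 of the 9 genes did not overlap wild type, against 0.933% of all genes, and in the haploinsufficient group 6 did not, against 0.452%.

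Per kilobase of exon, wild-type levels ordered the genes from Glo1 (44.1 ± 3.9 CPM per kb, SD, n = 8) and Nnt (41.8 ± 3.1) to Tmem181a (9.21 ± 0.91), Tmem181b-ps (7.32 ± 1.26), Synj2 (5.30 ± 0.91), Dynlt1b (5.17 ± 1.33), Wdfy1 (4.12 ± 0.52), Gm7120 (3.86 ± 0.68) and Dnahc8 (0.52 ± 0.24). Neighbours in this order were apart by more than their SDs in 2 places, between Nnt and Tmem181a and between Gm7120 and Dnahc8. The mean ± SD of each other pair of neighbours overlapped, so the order from Tmem181a to Gm7120 is not resolved step by step. The authors' FPKM divided by this level had a median of 1.01 over all genes. For Dynlt1b the quotient was 11.7, higher than in 99.1% of genes, for Wdfy1 3.76 (98.1%) and for Gm7120 2.02 (95.9%). For the other 6 genes it was between 0.938 and 1.55.

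**Figure D3:**
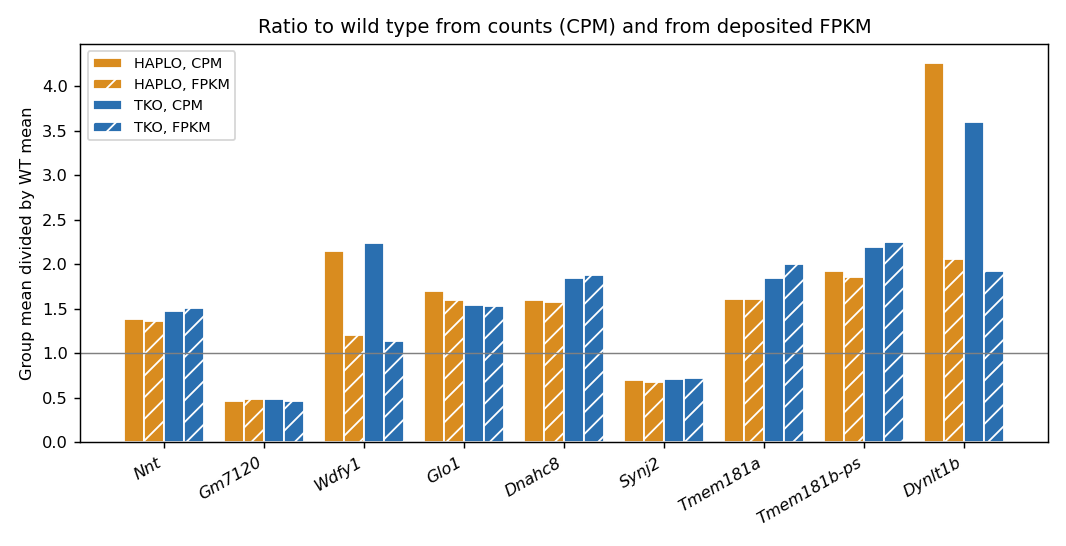
Ratio of the haploinsufficient (HAPLO, orange) and triple-knockout (TKO, blue) group mean to the wild-type mean (y axis, from 0) for each gene, from CPM (plain bars) and from deposited FPKM (hatched bars). The ratio falls from 2.16 to 1.21 for Wdfy1 and from 4.26 to 2.06 for Dynlt1b in haploinsufficient hearts when FPKM is used.

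The triple-knockout and haploinsufficient groups, whose labels differ in the second Grk2 allele alone, were compared next, a contrast the choice of genes did not use. None of the 9 genes passed the threshold (edgeR), against 0.395% of all genes tested, and 2 of the 9 had an unadjusted p under 0.05, as had 15.3% of all genes. Tmem181b-ps was 0.21 log2 higher in the triple knockout (95% interval 0.04 to 0.39, unadjusted p = 0.0253, adjusted p = 0.258, edgeR). Tmem181a was 0.23 higher (0.02 to 0.43, unadjusted p = 0.0367, adjusted p = 0.292, edgeR). For Wdfy1 the difference was 0.06 (-0.11 to 0.22), for Synj2 0.02 (-0.20 to 0.23), for Nnt 0.08 (-0.15 to 0.32) and for Glo1 -0.14 (-0.33 to 0.05). The intervals were wider for Dnahc8, at 0.21 (-0.21 to 0.64), Dynlt1b, at -0.13 (-0.53 to 0.27), and Gm7120, at -0.01 (-0.53 to 0.51). A missed threshold does not show that the levels were equal. The count over all genes, 55, moved to 420 without haploinsufficient replicate 3 and to 10 without triple-knockout replicate 3, while none of the 9 passed in any of the 25 alternatives tried (lowest adjusted p = 0.124, edgeR, DESeq2 or limma).

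Between the sets of libraries, at equal group, none of the 9 genes passed the threshold either (edgeR), against 0.194% of all genes, and 3 had an unadjusted p under 0.05, as had 8.59% of all genes. ID set 2 was lower by 0.26 ± 0.07 log2 (SE) for Tmem181b-ps (adjusted p = 0.189, edgeR), by 0.19 ± 0.09 for Tmem181a (adjusted p = 0.528, edgeR) and by 0.35 ± 0.17 for Dynlt1b (adjusted p = 0.579, edgeR). Nor did the difference from wild type pass as differing between the sets for any of the 9. The widest were Dynlt1b in the triple knockout, 0.87 ± 0.35 larger in ID set 2 (adjusted p = 0.581, edgeR; 0.172% of genes passed), and Gm7120 in the haploinsufficient group, less negative by 1.12 ± 0.49 in ID set 2 (adjusted p = 0.652, edgeR; 0 of 13941 genes passed, 2 by DESeq2, and 1024 had an unadjusted p under 0.05).

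**Figure D4:**
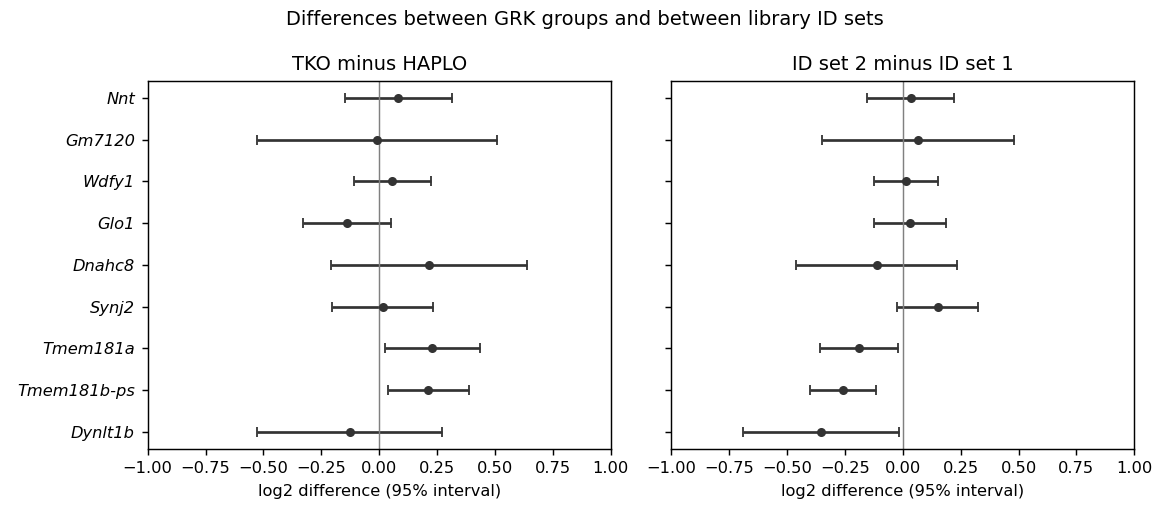
Log2 difference of each gene (x axis) with its 95% interval, for triple knockout minus haploinsufficient (left) and for ID set 2 minus ID set 1 at equal group (right). All 9 points lie between -0.14 and 0.23 on the left and between -0.35 and 0.15 on the right.

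Genes of the same place were also compared within each group, to see whether the same libraries were high or low in both. Over the 8 pairs of genes in 3 groups, 24 relations in all, none passed after Benjamini-Hochberg adjustment, with exact permutation tests whose lowest adjusted p was 0.25. Nnt and Gm7120 gave r = -0.808 in the triple knockout (exact permutation p = 0.0226, adjusted 0.25; rho -0.679, exact p = 0.11, adjusted 0.394, n = 7), but 0.052 without the 2 libraries farthest in Nnt, on which the relation rests. Synj2 and Dynlt1b gave r = -0.776 in the haploinsufficient group (exact permutation p = 0.0168, adjusted 0.25; rho -0.667, exact p = 0.0831, adjusted 0.394, n = 8) and -0.783 without the 2 farthest. Tmem181a and Dynlt1b gave r = 0.756 there (exact permutation p = 0.0313, adjusted 0.25; rho 0.619, exact p = 0.115, adjusted 0.394, n = 8) and 0.658 without the 2 farthest. Tmem181a and Tmem181b-ps, which share much of their sequence, gave r = 0.353, 0.666 and 0.725 in wild-type, haploinsufficient and triple-knockout hearts (adjusted exact permutation p = 0.734, 0.33 and 0.33; rho 0.714, 0.738 and 0.679, adjusted 0.394 in each). Without the 2 farthest libraries these were 0.351, 0.595 and 0.035, so the triple-knockout value rests on those libraries. Glo1 and Dnahc8 gave 0.278, -0.299 and -0.47 (adjusted exact permutation p = 0.734 in each; rho 0.095, 0.048 and -0.571, adjusted 0.976, 0.976 and 0.6), and 0.23, 0.007 and 0.113 without the 2 farthest.

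The neighbours of the 9 genes within 1 Mb numbered 81, of which 46 were tested. In the triple knockout 1 of 46 passed the threshold, 2.17% against 1.18% of all genes, and in the haploinsufficient group 2 passed, 4.35% against 2.24%. Between the GRK groups 0 of 46 passed (edgeR), against 0.395%, and 4 had an unadjusted p under 0.05, against 15.3%. Against wild type 8 of 46 had an unadjusted p under 0.05 in each GRK group (edgeR). The shares of all genes at that cut were 10.8% in the triple knockout and 17.2% in the haploinsufficient group. Around Glo1 and Dnahc8, 0 of 17 passed in either GRK group (edgeR; 0 and 2 had an unadjusted p under 0.05 in triple-knockout and haploinsufficient hearts). Btbd9, whose gene ends 16.6 kb from Glo1, was at 67.5 ± 8.6 CPM in wild type, 62.6 ± 6.3 in haploinsufficient and 76.2 ± 5.7 in triple-knockout hearts (SD, n = 8, 8 and 7). On the other side Glp1r, the receptor for glucagon-like peptide 1 and 26.6 kb from Dnahc8, fell under the filter with 21, 17 and 28 counts in all of wild type, haploinsufficient and triple knockout. The next gene tested on the Glo1 side, Gm6402, and the 2 nearest tested on the Dnahc8 side, Abcg1 (a sterol transporter) and Slc37a1, gave log2 fold changes of 0.01, -0.07 and -0.23 in the triple knockout and 0.31, -0.23 and -0.09 in the haploinsufficient group.

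Around Wdfy1, 0 of 8 neighbours passed in either group (edgeR; 1 and 0 at an unadjusted p under 0.05). Mrpl44, a mitochondrial ribosomal protein gene 14.2 kb away, gave -0.10 and 0.22, and Serpine2, a protease inhibitor gene, 0.24 and 0.12, triple knockout first. Ap1s3, an adaptor complex subunit gene, gave -0.03 and -0.25, and Kcne4, a potassium channel subunit gene, 0.00 in both. In the Nnt place 4 of 7 neighbours in the triple knockout and 3 of 7 in the haploinsufficient group had an unadjusted p under 0.05 (edgeR). The shares over all genes were 10.8% and 17.2%. After adjustment 1 of the 7 passed, in both groups: Hmgcs1, the cytosolic synthase of the mevalonate pathway to cholesterol, 80.0 kb from Gm7120. Hmgcs1 was at 82.7 ± 6.3 CPM in wild type, 118.1 ± 14.2 in haploinsufficient and 132.5 ± 16.9 in triple-knockout hearts (SD, n = 8, 8 and 7). Paip1 and 4833420G17Rik, between Nnt and Gm7120 and named after their values were seen, gave 0.01 and -0.45 in the triple knockout and 0.07 and -0.30 in the haploinsufficient group, and neither passed. Against the same 10.8% and 17.2% of all genes, 3 of 14 neighbours of the Synj2 cluster had an unadjusted p under 0.05 in each group (edgeR). Of these Tagap1 fell by 1.53 ± 0.38 log2 (SE) in the haploinsufficient group (adjusted p = 0.0309, edgeR) and gave -0.95 ± 0.36 in the triple knockout (adjusted p = 0.280, edgeR). Tmem181c-ps, which shares 72.3% of its stretches of 50 bases with other genes, gave 0.74 ± 0.22 in triple-knockout and 0.41 ± 0.22 in haploinsufficient hearts (adjusted p = 0.108 and 0.335, edgeR).

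**Figure D5:**
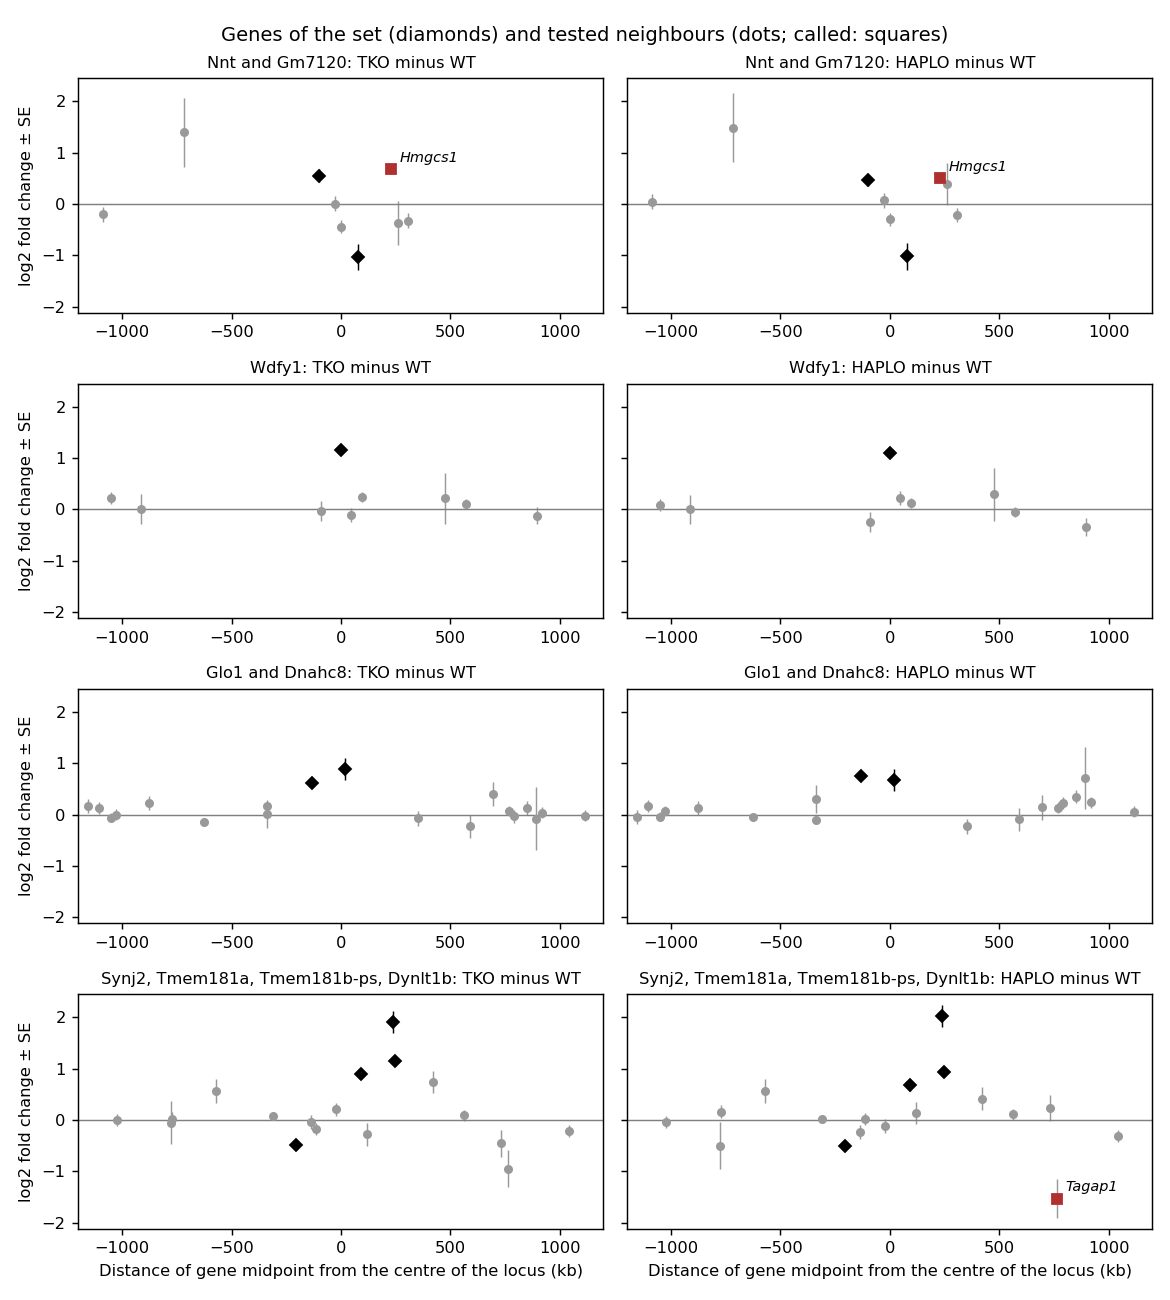
Log2 fold change ± SE against wild type (y axis) by distance of each gene's midpoint from the centre of its place in kb (x axis), for triple knockout (TKO, left) and haploinsufficient (HAPLO, right); diamonds are the 9 genes, grey dots the 46 tested neighbours and red squares neighbours past the threshold. Hmgcs1 in both groups and Tagap1 in the haploinsufficient group are the neighbours marked, and those of Glo1 and Dnahc8 lie between -0.23 and 0.71.

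Genes of the pathways around the 9 were described from lists. The lists were chosen with earlier results of these data known, so a listed gene that passed is a description only. Of 18 mitochondrial NADPH and redox genes beside Nnt, 0 passed in either GRK group, with medians of -0.10 (triple knockout) and -0.02 (haploinsufficient) against 0.01 over all genes. Of 11 glyoxal and glutathione genes beside Glo1, 18 dynein genes and 13 FYVE or endosome genes, 0 passed as well in each list and group. The shares of all genes that passed, 1.18% in the triple knockout and 2.24% in the haploinsufficient group, stand beside each of these counts. Of 11 phosphoinositide phosphatase genes beside Synj2, 0 passed in the triple knockout and 1 in haploinsufficient hearts: Inpp5j, a 5-phosphatase, was at 14.3 ± 3.2 CPM in wild type, 7.35 ± 3.32 in haploinsufficient and 9.28 ± 2.07 in triple-knockout hearts (SD, n = 8, 8 and 7), and fell in the haploinsufficient group (-1.03 ± 0.21, adjusted p = 0.00701, edgeR). Among 7 tested genes of a list of others that vary between strains 1 passed in each group: Ide, the insulin-degrading enzyme, at 113.4 ± 11.3 CPM in wild type, 64.0 ± 14.98 in haploinsufficient and 73.9 ± 9.3 in triple-knockout hearts (SD, n = 8, 8 and 7). Its log2 fold changes were -0.82 ± 0.12 (adjusted p = 9.53e-05, edgeR) and -0.62 ± 0.12 (adjusted p = 0.00376, edgeR). Neither Inpp5j nor Ide passed between the GRK groups.

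The genes whose levels followed each of the 9 most closely inside the groups were found by Pearson r over 23 libraries after each group's mean was taken off, given here as a description across libraries of unequal depth. Nnt was followed by Myom1, a protein of the sarcomere's M-band (0.944), and Mcam, an adhesion molecule (0.936). Glo1 was followed by Psmb7, a proteasome subunit gene (0.848), Polr1d (0.809) and Uqcrh (0.80), and Dynlt1b by Cdk1, the mitotic kinase (0.812), Esd (0.806) and Tmed2 (0.797). Wdfy1 had the weakest partners, Ube2k and Ap1s1 (both 0.72) and Kcmf1 (0.695). Gm7120 went with Chst15 (0.812), Celsr3 (0.804) and Trim32 (0.798), Dnahc8 with Eda2r (0.763), Gm12185 (0.745) and Zfp558 (0.712), and Synj2 with Acvr2b (0.812), Pdzd2 and Wdr31 (both 0.802). Tmem181a went with Zfp809 (0.843), Gm15417 (0.807) and Tnfrsf1b (0.768), and Tmem181b-ps with Olfr613 (0.846) and Grk4 (0.826). None of the 3 closest partners of each gene was one of the 9 genes: the closest pair among the 9 was Tmem181a and Tmem181b-ps at 0.559.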

How the data were processed

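The deposited counts of the authors are whole reads per gene in 23 libraries of single-end reads of 50 bases, made without strand from RNA depleted of ribosomal RNA per the labels' protocols. Per the submitters' processing notes, the tools were TopHat2 (version 2.0.10) with Bowtie2 on mm10, HTSeq for the counts and Cufflinks (version 2.1) for the deposited FPKM; the counting mode and the treatment of reads that match several places are not given in the sources used here. The table holds 23512 features; single exons of the targeted genes were summed per gene.

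Counts were fitted with edgeR (version 4.0.16, R 4.3.3), quasi-likelihood, over all 23 libraries with a term per group and for the ID set, TMM scaling and the expression filter (minimum count 10, minimum total 15). P-values are two-sided, adjusted by Benjamini-Hochberg over 13941 genes, and passed or called means adjusted p under 0.05; targeted genes and Cre are in no count of genes. CPM use TMM-scaled totals and log2 CPM a prior count of 1. Each Pearson r is between log2 values. The members and lists were chosen with earlier results of these data known. The text names all 9 members, neighbours called against wild type or else the 2 nearest on each side, the 3 genes most alike to each member and called members of lists; other genes were named after their values were seen. Some of the genes most alike to a member are not reported here. Positions come from the deposited gene models (9 of 9 matched), shared stretches from GENCODE M21 transcripts (9 of 9, 2 under a newer symbol) and promoters from RefSeq. The fit was also run on simulated counts drawn from its own estimates of the spread, with no difference between ID sets. That run cannot show how stable the counts of genes are in the real libraries, and nothing is read from it. Alternatives were DESeq2 (version 1.42.0), limma (version 3.58.1) on log2(FPKM + 0.1), other scaling, no filter, other terms, fits of 1 ID set or of 2 groups, libraries left out and other windows; a cardiomyocyte marker term and leaving out the shallowest library were added after seeing the data.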

Additional observations from a re-analysis of the deposited data

Results flagged for a closer look

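In 2 groups 1 library of Synj2 stood apart on the log2 CPM scale by Dixon's test at the 95% level, which flags about 1 in 20 groups by chance. The test was applied to each of the 9 genes in every group, so a flag can arise by chance alone, and whether either did was not tested. Wild-type replicate 7 was high at 42.2 CPM with the next at 28.5, a gap of 0.863 of the group's range on the log2 scale and 0.888 on the CPM scale. Haploinsufficient replicate 2, the shallowest library, was low at 13.4 CPM with the next at 18.8, a gap of 0.554 of the range on the log2 scale. On the CPM scale that gap was 0.479, under the critical value, so the second library stands apart on the log2 scale alone. Its 23 reads of Synj2 limit the precision of that value. With both libraries included, every GRK library was below every wild-type library.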

How the results depend on the processing

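Against wild type, where the choice of genes fixes the direction, 6 of the 9 stayed within the spread between libraries under all 11 alternatives; Wdfy1, Dynlt1b and Gm7120 moved further under 1 or more. By limma on log2 FPKM, Wdfy1 gave 0.20 in the triple knockout and 0.29 in the haploinsufficient group. Of the 9 genes passing in the triple knockout 8 passed with the replicate block (not Synj2), 4 and 5 in ID sets 1 and 2 alone and 5 by limma (not Gm7120, Wdfy1, Dnahc8 and Synj2). Of the 8 in the haploinsufficient group 7 passed without the shallowest library (not Gm7120), 4 in each ID set alone and 6 by limma (not Nnt and Wdfy1), while DESeq2 added Dnahc8. Nothing is read from these counts of the 9 genes, since the choice of genes used the same libraries and comparisons. The count of genes passing between triple knockout and wild type (165) became 296 with only the groups compared, 50 and 51 in ID sets 1 and 2 alone, 293 with the cardiomyocyte marker term and 284 by DESeq2. For haploinsufficient against wild type (312) the counts were 20, 179, 588 and 559 in ID set 1, ID set 2, with that term and by DESeq2. Between the GRK groups (55) they were 88 with no filter, 16 with the replicate block, 1 with only the groups compared, 176 and 1 in ID sets 1 and 2, 88 with the marker term, 274 by DESeq2, 0 by limma on FPKM and 10 to 420 over the libraries left out in turn. Between ID sets (27) they were 75 with no filter, 14 with no group term and 74 by DESeq2, and DESeq2 gave 63 and 2 genes for the triple-knockout and haploinsufficient differences between sets (24 and 0). Neighbours passing were 2 within 2 Mb in the triple knockout (1 within 1 Mb), and 1 within 0.5 Mb and 5 within 2 Mb in the haploinsufficient group (2 within 1 Mb).

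Some differences between the GRK groups, none of them past the threshold, changed sign. Gm7120 gave 0.027 with only the groups compared, 0.459 in ID set 1, 0.044 by limma and -0.204 to 0.075 over the libraries left out in turn. Nnt gave -0.04 in ID set 1, Glo1 0.006, Synj2 -0.042 and Dynlt1b 0.423 in ID set 2, Wdfy1 -0.093 by limma, and Synj2 -0.032 to 0.072 over the libraries left out.

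The groups share replicate numbers, but of 22 pairs with the same number (r from -0.263 to 0.484) 2 were over 0.1 and 0 correlated best with their own number, so the numbers were not taken as pairs; with the replicate block 146, 219 and 16 genes passed in the 3 comparisons. Depth limits Gm7120 and Dynlt1b most, with as few as 3 and 14 reads in a library; the cause of the changes above was not tested.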
